A study of Mus musculus with 16 samples.

Results

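The genes described here encode the classical acute phase proteins of the mouse liver: the serum amyloids Saa1, Saa2 and Saa3, the orosomucoids Orm1 and Orm2, lipocalin 2 (Lcn2), haptoglobin (Hp), hemopexin (Hpx), C-reactive protein (Crp) and lipopolysaccharide binding protein (Lbp). These 10 genes were chosen by symbol, as the genes of these proteins, and each was read from the probe with the highest mean over all arrays. Of the 10, 9 had a matched probe, and all 9 passed the filter on dim probes among 31511 genes tested. Saa2 was not analysed here. Saa1 was read through a probe designed on a predicted transcript, and how far that probe also takes up RNA of its near copy Saa2 was not tested.

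Liver RNA was measured on 1-colour arrays, 1 per mouse, in 16 male mice aged 6 weeks. The mice carried 4 genotypes of CerS2, the gene of ceramide synthase 2, which makes ceramides with very long acyl chains, and each genotype had 4 mice on a mixed background, 75% C57BL/6 and 25% SV129. WT is the wild type, H/A, Del and Flox are engineered lines, and the labels also call Del "delHox" and Flox "delneo" without describing the alleles further. Cers2 itself was not analysed here, so the genotypes were not checked against the engineered gene, and no label names a treatment or an inflammatory stimulus for any group.

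The acute phase response is the change in liver secretion that follows infection or injury. Macrophage cytokines, above all interleukin 6 and interleukin 1, act on hepatocytes through STAT3, C/EBP and NF-kappaB factors, and the liver then secretes more of the positive acute phase proteins and less of the negative ones such as albumin. Serum amyloids ride on lipoproteins, orosomucoids carry small lipophilic molecules, haptoglobin and hemopexin capture free hemoglobin and heme, lipocalin 2 withholds iron from bacteria by binding their siderophores, and C-reactive protein and lipopolysaccharide binding protein recognise microbial surfaces.

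The arrays had 51.6% to 65.2% of spots well above background and 0 saturated spots, and their number limits the precision of every value. Before scaling, the 75th percentile of the signal lay between 86.0 and 173.1, with the H/A arrays at 109.3 to 173.1. Hepatocyte markers were high in all groups, with the log2 of their summed value at 18.10 to 18.23 in all 16 arrays. Quantile normalisation gives all arrays the same value at each rank and so narrows the range of such a sum of bright genes. Whether the hepatocyte content was equal was not tested. All 9 measured acute phase genes were well above background on 16 of 16 arrays. All levels below are log2 values of the quantile-normalised table, a difference is a difference of group means on that scale, and "rose" and "fell" are used of genes with an adjusted p under 0.05 in limma over all genes tested.

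The RefSeq promoter table (build GRCm38.p6) held windows for 7 of the 10 genes, each with 250 bases before and 50 after the transcription start. The stretches before the start are shown for Lcn2 and Hpx, the genes that rose in both the H/A and the Del line, for Saa3, whose level varied with that of Lcn2 between mice, and for Orm2, of the pair that varied most closely together. They lie on chr2:32387740-32387989 (minus strand), chr7:105600117-105600366 (minus strand), chr7:46715677-46715926 (minus strand) and chr4:63362199-63362448 (plus strand), are printed 5′ to 3′, and have matches to the searched motifs in capitals.
Lcn2 promoter: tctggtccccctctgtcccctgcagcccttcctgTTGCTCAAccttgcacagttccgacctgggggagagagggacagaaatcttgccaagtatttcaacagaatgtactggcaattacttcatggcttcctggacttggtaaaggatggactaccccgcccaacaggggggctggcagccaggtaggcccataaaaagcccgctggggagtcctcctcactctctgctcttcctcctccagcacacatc
Hpx promoter: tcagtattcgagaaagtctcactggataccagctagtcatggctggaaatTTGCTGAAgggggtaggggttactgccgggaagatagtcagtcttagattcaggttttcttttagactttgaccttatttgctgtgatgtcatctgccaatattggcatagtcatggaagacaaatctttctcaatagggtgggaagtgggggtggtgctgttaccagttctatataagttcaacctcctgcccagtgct
Saa3 promoter: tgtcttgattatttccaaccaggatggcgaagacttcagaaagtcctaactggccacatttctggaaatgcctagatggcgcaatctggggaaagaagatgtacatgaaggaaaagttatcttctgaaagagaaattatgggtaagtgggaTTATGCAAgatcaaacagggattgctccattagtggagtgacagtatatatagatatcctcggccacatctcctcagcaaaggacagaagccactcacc
Orm2 promoter: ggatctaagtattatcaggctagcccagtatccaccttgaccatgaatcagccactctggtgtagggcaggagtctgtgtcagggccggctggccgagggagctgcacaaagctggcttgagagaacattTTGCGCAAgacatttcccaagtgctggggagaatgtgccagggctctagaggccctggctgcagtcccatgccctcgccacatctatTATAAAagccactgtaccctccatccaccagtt

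The C/EBP core TTGCNNAA, searched on both strands, was present in 6 of the 7 windows, all but that of Crp, against 10.8% of the 32851 promoter windows of the table. Its match lay 216 to 209 bases before the start in Lcn2, 200 to 193 in Hpx, 120 to 113 in Orm2 and 99 to 92 in Saa3. The Saa1 and Saa2 windows, which also held it, were 94.8% identical over 251 aligned columns, before the start, so they are close to being 1 sequence counted 2 times. The TATA box TATAAA was found in 2 of 7 windows, those of Orm2 and Crp, against 13.6% of all windows. The STAT motif TTCNNNGAA, the HNF1 core GTTAAT and the NF-kappaB consensus were found in 0 of 7 windows, against 8.30%, 7.10% and 8.46% of all windows. None of the matches overlapped another. A match is a description of letters and was not tested as a binding site.

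Lcn2, the siderophore-binding protein, had the largest differences between genotypes of the 9 genes. It was at 7.95, 8.52, 8.22 and 7.97 in WT, at 8.12, 8.04, 7.77 and 8.45 in Flox, at 8.60, 11.11, 12.78 and 11.08 in H/A and at 11.84, 10.26, 11.97 and 9.72 in Del. Every H/A and Del value lay above every WT and Flox value, although the lowest H/A mouse, at 8.60, stood only just above the highest WT mouse, at 8.52. The mean was 8.17 ± 0.27 (SD, n = 4) in WT, 8.10 ± 0.28 in Flox, 10.89 ± 1.72 in H/A and 10.95 ± 1.13 in Del, so the spread between mice was also wider in the lines where the level was high. In a liver sample a higher level can come from more RNA per cell or from more cells that make it, and these cannot be told apart here.

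Lcn2 rose by 2.72 in H/A against WT, a 6.61-fold difference (95% interval 2.50 to 17.5, adjusted p = 0.0185). Against the same WT arrays it rose by 2.78 in Del, 6.86-fold (2.59 to 18.2, adjusted p = 0.0123). Against Flox it rose by 2.85 (adjusted p = 0.00678) in the Del mice and by 2.80 (0.00873) in the H/A mice. Flox and WT differed by -0.07 (95% interval -1.48 to 1.33), and H/A and Del by -0.05 (-1.46 to 1.35), both below the spread between mice. With the slide in the label as a block, the H/A and Del differences from WT were 2.67 (adjusted p = 0.0308) and 2.84 (0.0146). For 6 of 16 samples the slide in the file name is not that in the label. The values match the files of the label, and the slide in the file name overlaps with genotype. A block for it thus does not test the slide of the measured values. With that block, Lcn2 lost its call in Del against WT, at 3.05 (adjusted p = 0.0746), and in H/A against Flox, at 2.52 (0.125).

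The call in H/A against WT rested on few mice. Without H/A replicate 2 the difference was 2.65 (adjusted p = 0.0521), without H/A replicate 3 it was 2.10 (0.0574) and without WT replicate 4 it was 2.66 (0.0537), while without H/A replicate 1 it was 3.49 (0.000792). Within the first slide, with 3 H/A and 2 WT arrays, it was 2.59 (0.394), and within the second, with 1 H/A and 2 WT arrays, 2.99 (0.0947). The Del against WT call was lost without Del replicate 3, at 2.44 (adjusted p = 0.0524). Within the first slide, where Del had 1 array, the Del difference from WT was 3.60 (0.326), and within the second, with 3 Del arrays, 2.55 (0.0360). The Del against Flox call held whichever array was left out.

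**Figure D1:**
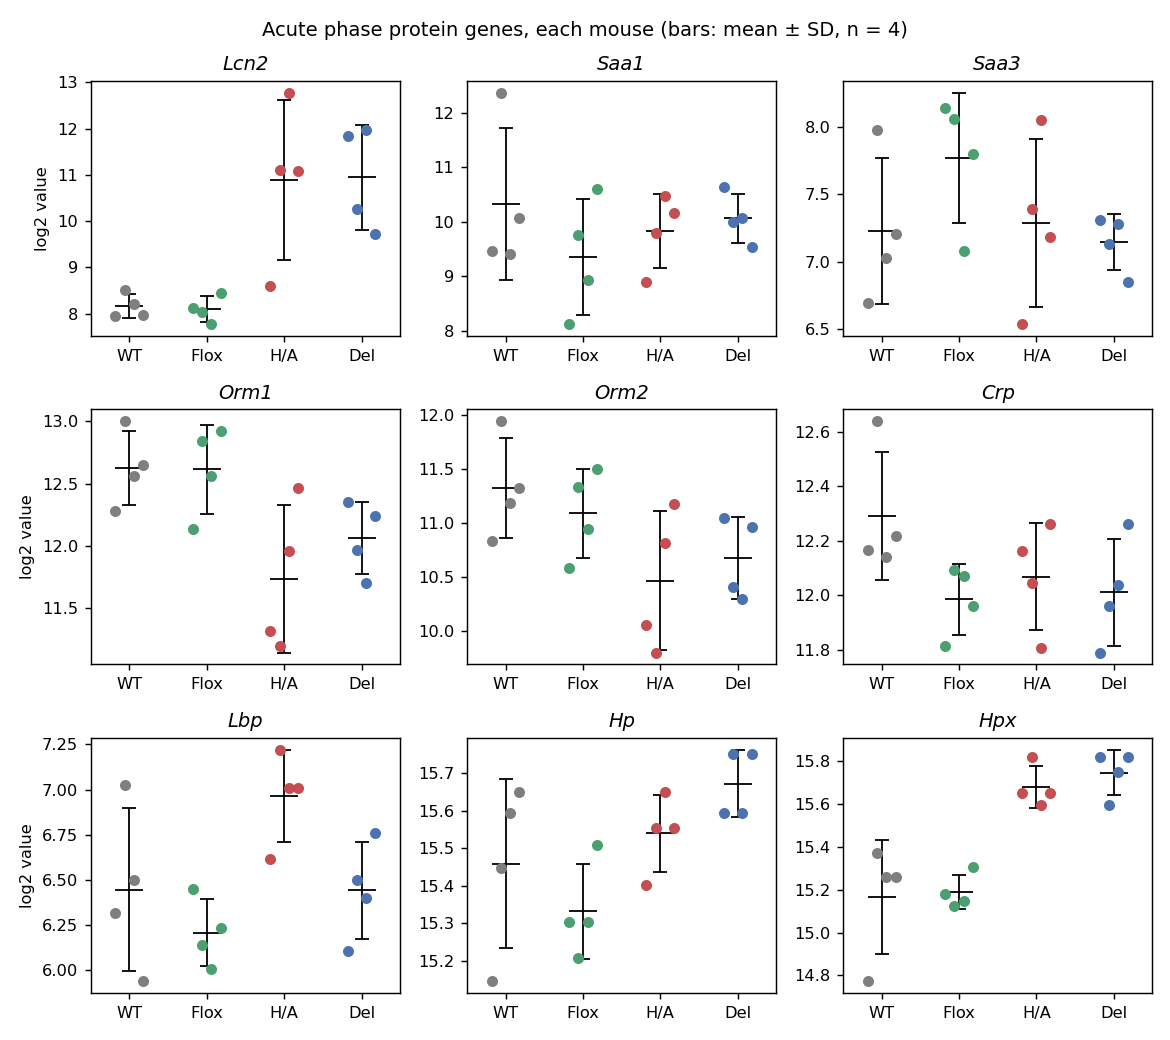
Log2 value (quantile normalised) of each of the 9 measured acute phase genes on each of the 16 arrays, by genotype (dots, 1 per mouse), with the mean and SD of 4 mice (black bars); the y axes differ between panels and do not start at 0. Lcn2 reached 12.78 in H/A and 11.97 in Del, against at most 8.52 in WT and 8.45 in Flox, and all H/A and Del values of Hpx (15.59 and above) lay above all WT and Flox values (15.37 and below).

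Hpx, the heme-binding plasma protein, was the other gene that separated the lines. It was at 14.77, 15.37, 15.26 and 15.26 in WT, at 15.18, 15.13, 15.15 and 15.31 in Flox, at 15.65, 15.82, 15.59 and 15.65 in H/A and at 15.82, 15.59, 15.75 and 15.82 in Del. The H/A and Del mice were at 15.59 to 15.82 and the WT and Flox mice at 14.77 to 15.37, with no overlap. Of all genes, 16.7% in H/A and 17.8% in Del did not overlap with WT, and 35.6% and 33.5% did not overlap with Flox. The share separated in all these comparisons at once, as Hpx and Lcn2 were, was not counted. Hpx rose by 0.51 in H/A against WT (1.43-fold, 95% interval 1.18 to 1.72, adjusted p = 0.0217) and by 0.58 in Del against WT (1.50-fold, 1.24 to 1.81, adjusted p = 0.00807). It rose by 0.56 in Del against Flox (adjusted p = 0.00658) and by 0.49 in H/A against Flox (adjusted p = 0.0134).

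The H/A against WT call of Hpx was lost without H/A replicate 2, at 0.47 (adjusted p = 0.0737), without WT replicate 1, the lowest WT mouse, at 0.38 (0.0577), and with the scanner values scaled to their 75th percentile, at 0.39 (0.0722). Within the slides the H/A difference from WT was 0.62 (0.338) and 0.39 (0.336), and the Del difference 0.75 (0.325) and 0.46 (0.109). The Hpx probe ranked from 11 to 37 of 60037 by signal. Quantile normalisation gives all arrays the same value at each rank, so levels this high take few values, several of which recur between arrays.

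Hp, the hemoglobin-binding protein, ranked as high, from 12 to 24. It was at 15.15, 15.45, 15.59 and 15.65 in WT, at 15.31, 15.21, 15.31 and 15.51 in Flox, at 15.40, 15.55, 15.65 and 15.55 in H/A and at 15.59, 15.75, 15.59 and 15.75 in Del. The groups overlapped except Del and Flox. Hp rose by 0.34 in Del against Flox (1.27-fold, 95% interval 1.06 to 1.52, adjusted p = 0.0440). Against WT it differed by 0.21 in Del (adjusted p = 0.230) and by 0.08 in H/A (0.662). The call was lost in 9 of the 16 fits that left out 1 array, with values from 0.30 to 0.40, and at 0.23 (adjusted p = 0.160) with scaling to the 75th percentile.

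Of the orosomucoids, Orm1 fell in the H/A line, and Orm2 did not pass the test in any comparison. Orm1 was at 12.28, 13.00, 12.56 and 12.65 in WT, at 12.13, 12.84, 12.56 and 12.92 in Flox, at 11.31, 11.19, 11.96 and 12.47 in H/A and at 12.35, 11.97, 11.70 and 12.24 in Del. Of the H/A mice 3 were below every WT mouse and 1 was inside the WT range. Orm1 fell in H/A against WT by 0.89 (1.86-fold lower, 95% interval 1.25 to 2.75, adjusted p = 0.0453) and in H/A against Flox by 0.88 (1.84-fold lower, 1.25 to 2.73, adjusted p = 0.0225). In Del the difference was -0.56 against WT (adjusted p = 0.155) and -0.55 against Flox (0.110).

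The Orm1 call in H/A against WT was lost in 12 of the 16 fits without 1 array, with values from -1.14 to -0.71 and adjusted p up to 0.139. A block for the slide in the label ended it too, at -0.84 (0.0653). With a block for the slide in the file name, which overlaps with genotype, the difference was -0.94 (0.0612). Within the first slide the difference was -1.16 (0.277), and within the second, where the H/A line had 1 array, replicate 4 with its highest Orm1 level, -0.14 (0.784). Without scaling between arrays it was -0.33 (0.468), on arrays where the median of all genes moved from -0.09 to 0.37. Relative to that median it was -0.80 in the normalised and -0.71 in the unscaled values. The H/A against Flox call was lost without H/A replicate 1, at -0.74 (0.0529), without H/A replicate 2, at -0.70 (0.0741), and without Flox replicate 4, at -0.78 (0.0616).

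Orm2 was at 10.84, 11.94, 11.18 and 11.32 in WT, at 10.58, 11.34, 10.95 and 11.49 in Flox, at 10.06, 9.80, 10.82 and 11.17 in H/A and at 11.04, 10.41, 10.29 and 10.96 in Del. Its differences were of a similar size, at -0.86 (adjusted p = 0.0849) for H/A and -0.64 (0.164) for Del against WT, but did not pass the test. Orm1 and Orm2 are near copies in 1 gene cluster. Their probes, shown because the 2 genes varied so closely together, cover different stretches.
Orm1 probe: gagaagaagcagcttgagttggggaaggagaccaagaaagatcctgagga
Orm2 probe: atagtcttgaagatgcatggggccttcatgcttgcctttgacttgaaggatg
The probes are 50 and 52 bases long and share no run of more than 6 bases. Whether either probe also binds the RNA of the other gene was not tested.

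The serum amyloids did not separate the genotypes. Saa1, the main circulating form, was at 9.46, 12.38, 9.41 and 10.07 in WT, at 8.11, 9.75, 8.94 and 10.61 in Flox, at 8.90, 9.79, 10.47 and 10.16 in H/A and at 10.64, 9.996, 10.07 and 9.54 in Del. The highest value was WT replicate 2, at 12.38, and the lowest a Flox mouse, at 8.11. Saa1 differed from WT by -0.50 in H/A (95% interval -1.80 to 0.81, adjusted p = 0.581), by -0.27 in Del (-1.57 to 1.04, 0.769) and by -0.98 in Flox (-2.28 to 0.33, 0.802). Without WT replicate 2 the Saa1 difference was 0.19 in H/A, 0.42 in Del and -0.29 in Flox. The sign in H/A and in Del thus rested on that mouse. Saa3, made by macrophages as well as by other cells, was at 6.70, 7.98, 7.02 and 7.21 in WT, at 8.14, 8.06, 7.08 and 7.80 in Flox, at 6.53, 7.39, 8.05 and 7.18 in H/A and at 7.31, 7.13, 7.28 and 6.85 in Del. Its mean was highest in Flox, at 7.77 ± 0.48, and differed from WT by 0.06 in H/A (-0.61 to 0.74, adjusted p = 0.904) and by -0.08 in Del (-0.76 to 0.59, 0.863). These intervals still allow Saa1 a change of more than 1 in either direction in Del.

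Crp and Lbp bind bacterial surfaces. Crp, which responds only weakly to inflammation in mice, was at 12.16, 12.64, 12.14 and 12.22 in WT, at 11.81, 12.09, 12.07 and 11.96 in Flox, at 12.16, 12.05, 11.81 and 12.26 in H/A and at 11.79, 11.96, 12.04 and 12.26 in Del. Its WT values all lay above its Flox values, with a difference of -0.31 in Flox against WT (95% interval -0.62 to 0.00, adjusted p = 0.802), beside 4.37% of all genes whose Flox and WT values did not overlap. Lbp was at 6.32, 7.03, 6.50 and 5.94 in WT, at 6.45, 6.14, 6.01 and 6.23 in Flox, at 6.62, 7.22, 7.01 and 7.01 in H/A and at 6.10, 6.50, 6.40 and 6.76 in Del. It rose in H/A against Flox by 0.76 (1.69-fold, 1.24 to 2.30, adjusted p = 0.0162). It differed from WT by 0.52 in H/A (0.07 to 0.96, adjusted p = 0.108) and by 0.00 in Del (-0.45 to 0.44, adjusted p = 0.990). Without H/A replicate 2 the difference from Flox was 0.67 (adjusted p = 0.0514), and without WT replicate 2, the highest WT mouse, the difference from WT was 0.71 (0.0207).

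**Figure D2:**
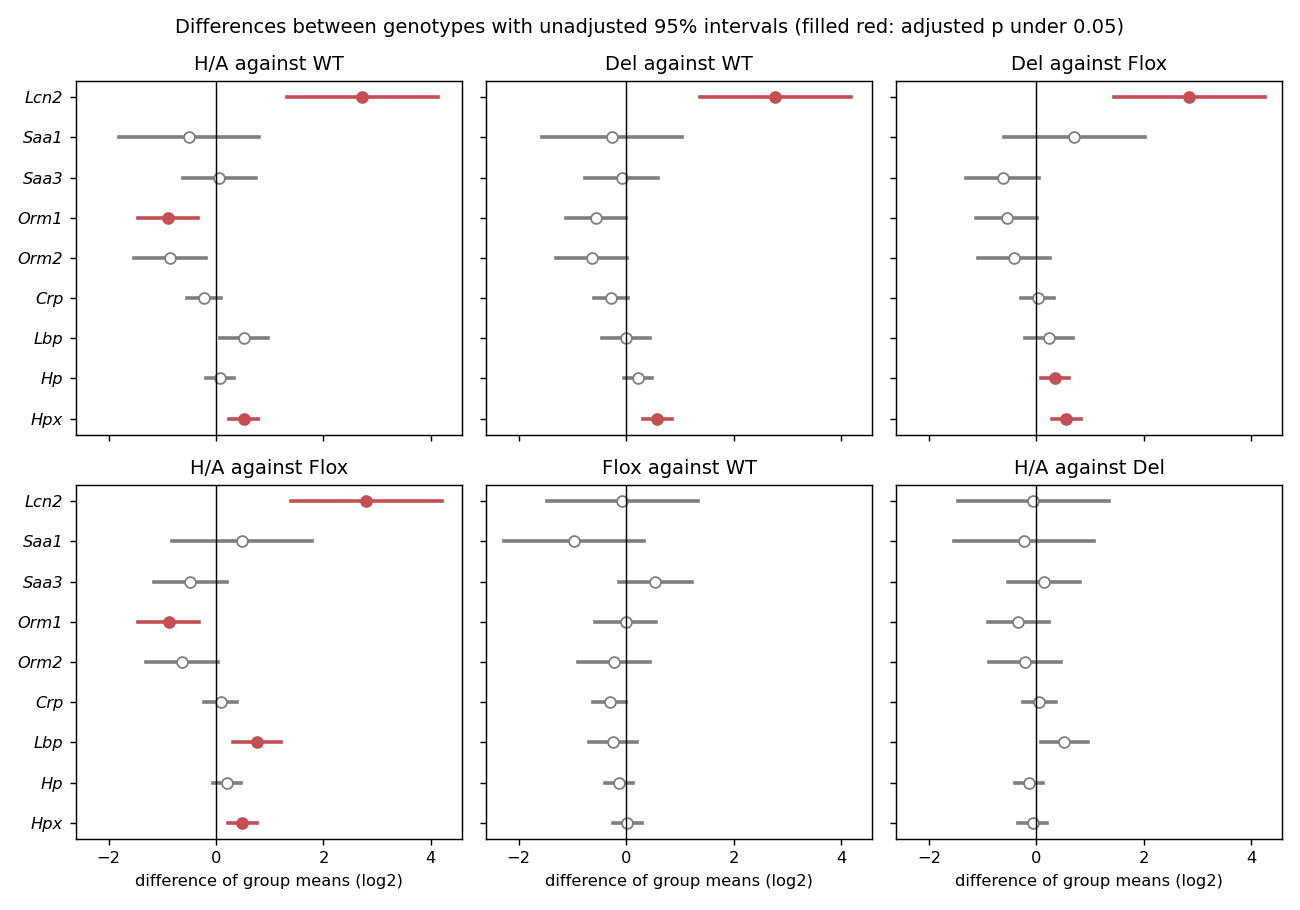
Difference of group means (log2, x axis) of the 9 acute phase genes (y axis) in the 6 comparisons, with unadjusted 95% intervals from limma; filled red points have an adjusted p under 0.05 over all 31511 genes. Lcn2 and Hpx are filled in the 4 comparisons of H/A or Del with WT or Flox, Orm1 lies to the left in both H/A comparisons, at -0.89 and -0.88, and 0 genes are filled in Flox against WT and H/A against Del.

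In H/A against WT, 3 of the 9 acute phase genes were called, 2 up and 1 down, beside 10.04% of all genes tested (7.08% up and 2.97% down). In Del against WT, 2 were called, both up, beside 13.2% of all genes (8.85% up and 4.37% down). In Del against Flox, 3 were called, all up, beside 34.7% (16.6% up and 18.1% down). In H/A against Flox, 4 were called, 3 up and 1 down, beside 33.2% (15.9% up and 17.3% down). The comparisons with Flox called so many genes that 3 or 4 of 9 is near the background. Groups that did not overlap were counted too, with 2 of 9 genes in H/A against WT (16.7% of all genes), 2 in Del against WT (17.8%), 3 in Del against Flox (33.5%), 3 in H/A against Flox (35.6%) and 0 in H/A against Del (3.68%). The median difference of the 9 genes was 0.06 in H/A and -0.08 in Del against WT, beside -0.09 and -0.11 for all genes. Against Flox it was 0.21 in H/A and 0.23 in Del, beside -0.14 and -0.14 for all genes.

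Flox against WT called 0 of the 9 genes, beside 0.0222% of all genes, and 0 had an unadjusted p under 0.05 in limma, beside 5.80% of all genes. H/A against Del also called 0, beside 0.0127%, and 1 had an unadjusted p under 0.05, beside 7.85% of all genes, Lbp with a difference of 0.52 (95% interval 0.08 to 0.97, adjusted p = 0.573). A test of whether the H/A against WT difference itself differed from that of Del against Flox called 0 of 9, beside 0.00317% of all genes, with 0 at an unadjusted p under 0.05. For Lcn2 the difference between the differences was -0.12 (-2.11 to 1.86) and for Hpx -0.04 (-0.43 to 0.34).

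Ordered by group mean, Lcn2 and Hpx each had 1 step between neighbouring genotypes that passed the test, from WT to H/A for Lcn2 (2.72) and from Flox to H/A for Hpx (0.49). For the other 7 genes, 0 of the steps between neighbours passed. The order for Lbp was Flox, Del, WT and H/A, with a last step of 0.52 (adjusted p = 0.108), and the order for Orm1 was H/A, Del, Flox and WT, with a largest step of 0.55 between Del and Flox (adjusted p = 0.110).

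Within a genotype the mice also differed in ways that some acute phase genes shared. The deviation of each mouse from its genotype mean was correlated over the 16 arrays for each of 36 gene pairs, with a permutation test (100000 permutations within genotypes, two-sided, Benjamini-Hochberg adjusted over the 36 pairs). Of the 36, 5 passed, and all 5 were positive. Orm1 and Orm2 varied most closely, with r = 0.977 and rho = 0.979 (permutation p = 1e-05 for both, the smallest these permutations can give, adjusted p = 0.00036). Without the 2 arrays farthest from the median of the first-named gene, r was 0.975.

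Saa3 and Lcn2 had r = 0.717 and rho = 0.741 (permutation p = 0.00076 and 0.00184, adjusted p = 0.0128 and 0.0276), with r = 0.458 without the 2 farthest arrays. Saa1 and Lcn2 had r = 0.496 and rho = 0.700 (permutation p = 0.00107 and 0.0023, adjusted p = 0.0128 and 0.0276), and r = 0.602 without the 2 farthest arrays. Those 2 were the farthest in Saa1. The H/A mice farthest in Lcn2, replicates 1 and 3 with deviations of -2.29 and 1.89, stayed in. The H/A mouse with the lowest Lcn2, replicate 1, also had the lowest Saa1 and Saa3 of its group, and the H/A mouse with the highest Lcn2, replicate 3, the highest of both. Saa1 also varied with Orm2 (r = 0.719, rho = 0.706, permutation p = 0.00371 and 0.00905, adjusted p = 0.0334 and 0.0652) and with Orm1 (r = 0.658, rho = 0.718, permutation p = 0.00523 and 0.00595, adjusted p = 0.0377 and 0.0535), where the rank correlation missed the threshold. Without the 2 farthest arrays these were r = 0.631 and 0.625. Without WT replicate 2, the mouse with the highest Saa1, 1 pair passed, Orm1 with Orm2. Hp and Hpx had r = 0.599 (permutation p = 0.129, adjusted p = 0.576).

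**Figure D3:**
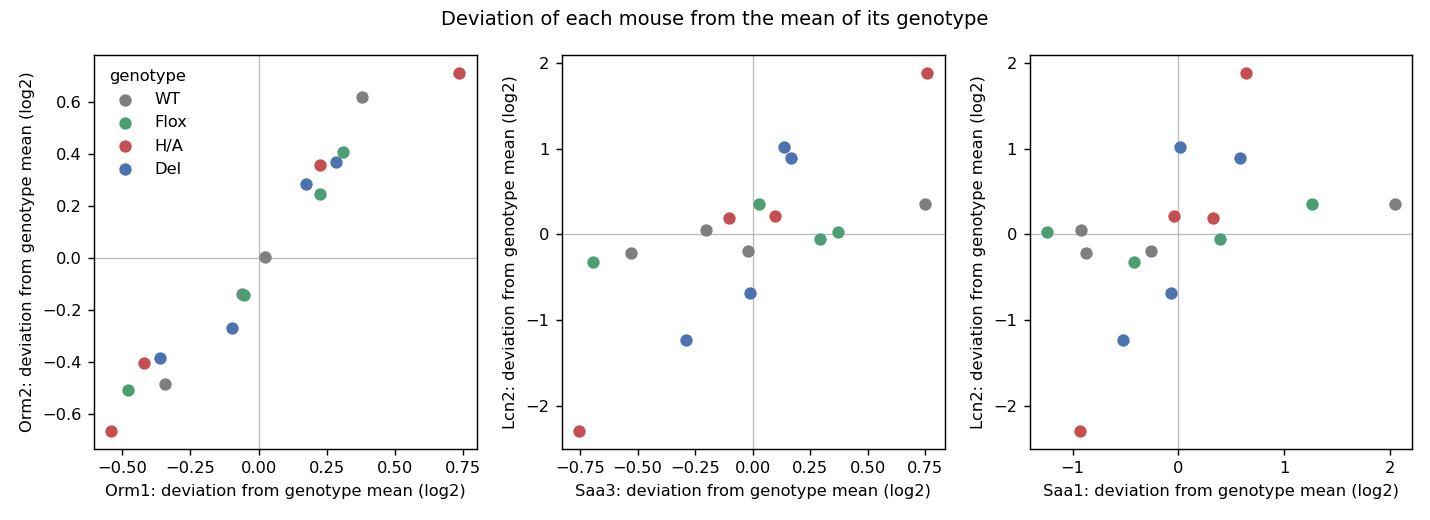
Deviation of each of the 16 mice from the mean of its genotype (log2, both axes), coloured by genotype, for Orm1 and Orm2, Saa3 and Lcn2, and Saa1 and Lcn2. The Orm pair lies close to a line (r = 0.977), and in the Lcn2 panels (r = 0.717 and 0.496) the H/A mice span the widest range of Lcn2.

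The genes whose levels were most like those of a member over the 16 arrays, by Pearson r and leaving out names that are only identifiers, are given as a description, since the points share genotypes and arrays. Lcn2 was most like Gars, the glycyl-tRNA synthetase (r = 0.973), and Panx1, a membrane channel (r = 0.970). Hpx was most like Haus8 (r = 0.944), a spindle protein, and Samd9l (r = 0.943). Panx1 averaged 4.27 in WT, 4.42 in Flox, 6.09 in H/A and 6.45 in Del, and Haus8 6.08, 6.08, 8.63 and 8.85. Orm1 was most like Mir185 (0.853) and Olfr1269 (0.845), and Orm2 like Pqbp1 (0.83) and S1pr1 (0.80). Saa1 was most like Nin (0.900) and Sec63 (0.817), and Saa3 like Fgl1 (0.726), itself an acute phase gene of hepatocytes, and Gadd45g (0.704). Hp followed Kctd2 (0.842) and Tmc7 (0.834), Crp followed Scrn3 (0.890) and Afap1l1 (0.875), and Lbp followed Echdc3 (0.898) and Mrc1 (0.862), the macrophage mannose receptor.

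Of 35 other positive acute phase genes, the H/A line had 3 that rose and 4 that fell against WT, and the Del line 4 and 4. The median difference was -0.12 in H/A and -0.21 in Del, beside -0.09 and -0.11 for all genes. Il1rn, the interleukin 1 receptor antagonist, was higher than in WT by 2.73 in the H/A mice (adjusted p = 0.00403) and by 2.91 in the Del mice (0.0016). Complement C3 rose by 0.68 in both (0.0098 and 0.00682). Serpina1b, an alpha-1 antitrypsin, fell by 1.04 in H/A (0.00687) and by 1.19 in Del (0.0018), and Fgg, a fibrinogen chain, fell by 0.87 (0.0205) and by 0.88 (0.0141). So the called genes of this list went both ways in each line, as those of the 9 did in H/A. In Del against WT the 2 called of the 9 both rose. Without 1 array, the number called lay between 3 and 9 in H/A and between 4 and 10 in Del. Of 11 negative acute phase genes, 1 was called in each line against WT, Fetub, a fetuin, which fell by 0.47 in H/A (0.0497) and by 0.52 in Del (0.0268). The median difference of the 11 was 0.18 in H/A and 0.11 in Del, above the -0.09 and -0.11 of all genes. Without 1 array, 0 to 1 of them were called in each line against WT. Against Flox, 2 rose and 0 fell in H/A, F12 by 0.49 (0.0351) and Rbp4 by 0.40 (0.0319). Of all genes 15.9% rose and 17.3% fell there, so 2 of 11 that rose is near the background. In Del against Flox, 1 fell, Fetub by 0.41 (0.0395), and 0 rose, beside 18.1% and 16.6% of all genes.

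The signals that drive the response were read in the same liver. Il6 was not well above background on any array, and neither were Il22 and Il18, while Il6ra, the interleukin 6 receptor, and Socs3, its brake, were not analysed here. Of 7 cytokine genes tested, 0 rose in either line, and 2 fell in H/A against WT, Lif by 0.46 (0.0218) and Il11 by 0.72 (0.0295). Without 1 array, 0 to 4 cytokine genes were called in H/A, 4 of them without WT replicate 2, and 0 to 1 in Del. Of 11 receptor genes, 3 were called in H/A, 1 up and 2 down, and 5 in Del, 2 up and 3 down. Without 1 array the number called lay between 1 and 6 in H/A and between 4 and 6 in Del. Il10rb, a shared chain of the interleukin 10 and 22 receptors, rose by 1.20 in H/A (0.00135) and by 1.39 in Del (0.000283). Il1rl2, another receptor gene, fell in Del by 0.60 (0.0148) and was at -0.41 in H/A (0.0785). Il6st, the signalling chain gp130, differed from WT by 0.22 in H/A (0.285) and by 0.19 in Del (0.350). Against Flox, Il6st rose by 0.43 in H/A (0.0327) and by 0.40 in Del (0.0423). Of the 11 receptor genes, 4 rose and 2 fell in H/A against Flox, and 5 rose and 2 fell in Del. Among those that fell was Il22ra1, by 1.35 in H/A (0.00331) and by 0.76 in Del (0.0372).

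Of 16 genes of kinases, adaptors and transcription factors, 4 were called in H/A, all up, and 5 in Del, 4 up and 1 down, with median differences of 0.19 in both. The NF-kappaB subunit genes were among those that rose: Nfkb2 by 1.17 in H/A (0.00413) and 1.44 in Del (0.000622), Rela by 0.59 (0.0319) and 0.62 (0.0193), and Nfkb1 by 0.64 (0.015) and 0.59 (0.0173). Of 15 target and brake genes, 6 were called in H/A, 5 up and 1 down, with a median difference of 0.52, and 2 in Del, 1 up and 1 down, with a median of 0.33. Of all genes 10.04% were called in H/A and 13.2% in Del, so the count in Del is near the background. Tnfaip3, the brake A20 of NF-kappaB signalling, rose by 1.41 in H/A (0.00214) and by 0.75 in Del (0.0498), and Pim1, a STAT target kinase, fell by 0.38 (0.0433) and by 0.52 (0.00722). Without 1 array, 2 to 7 of the kinases, adaptors and factors were called in either line, and 2 to 8 of the targets and brakes in H/A and 1 to 5 in Del.

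Of 17 receptors and partners of the acute phase proteins, 7 were called in H/A against WT, all up, and 7 in Del, 5 up and 2 down. Leaving out 1 array gave 4 to 9 called in H/A and 6 to 10 in Del. Hmox1, heme oxygenase 1, which degrades the heme that hemopexin delivers, rose by 1.89 in H/A (0.0052) and by 1.84 in Del (0.00413). Tlr2, a receptor for bacterial lipoproteins, rose by 2.59 (0.00115) and by 2.27 (0.00165), and Cd36, a scavenger receptor, rose by 1.14 (0.00061) and by 1.07 (0.000516). Cd163, the macrophage receptor for haptoglobin with hemoglobin, fell in Del by 2.01 against WT (0.000362) and was at -0.61 in H/A (0.148). The H/A and Del levels of Cd163 differed by 1.40 (0.266).

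Markers of immune cells moved beside these genes. Of 11 Kupffer cell and macrophage markers, 8 rose in H/A and 7 in Del against WT and 0 fell, with median differences of 1.21 and 0.95. Against Flox, 8 rose and 1 fell in H/A (all genes: 15.9% and 17.3%), and 6 rose and 2 fell in Del (16.6% and 18.1%). The log2 of their summed value was 12.01 to 12.95 in WT and 12.24 to 12.82 in Flox, against 13.16 to 14.20 in H/A and 13.31 to 13.46 in Del, with no overlap, as for Lcn2 and Hpx. All 11 were above background on at least some arrays, and without 1 array 7 to 9 were called in H/A and 5 to 9 in Del. Of 10 neutrophil markers, 3 rose in H/A and 1 in Del. S100a8 rose in both, by 2.15 (0.00217) and by 1.70 (0.00655), and S100a9 and Ltf rose in H/A, by 1.58 (0.021) and by 0.77 (0.0174). The summed neutrophil value overlapped between all but Flox and H/A, at 12.19 to 12.69 in WT, 12.63 to 12.89 in Flox, 12.26 to 12.60 in H/A and 12.16 to 12.67 in Del. Lcn2 is also made by macrophages and neutrophils, and the part of these cells in its level was not tested.

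Few markers of other cells were called against WT. Of 10 hepatocyte markers, 1 rose in H/A and 0 in Del against WT, with median differences of -0.03 and 0.01. Of 5 adipocyte, 5 cholangiocyte, 6 lymphocyte, 8 stellate cell and fibroblast and 8 endothelial markers, 0 rose and 0 fell in either line against WT. Against Flox, 4 of the 8 stellate cell and fibroblast markers rose in Del and 1 in H/A, and 0 fell. All genes that rose there were 16.6% and 15.9%. The log2 of their summed value was 12.31 to 12.57 in Flox, 12.87 to 13.44 in Del and 12.97 to 13.12 in H/A, but 12.33 to 13.01 in WT. In each other list of this paragraph at most 2 rose and 1 fell against Flox. The adipocyte genes Adipoq and Lep were not well above background on any array.

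**Figure D4:**
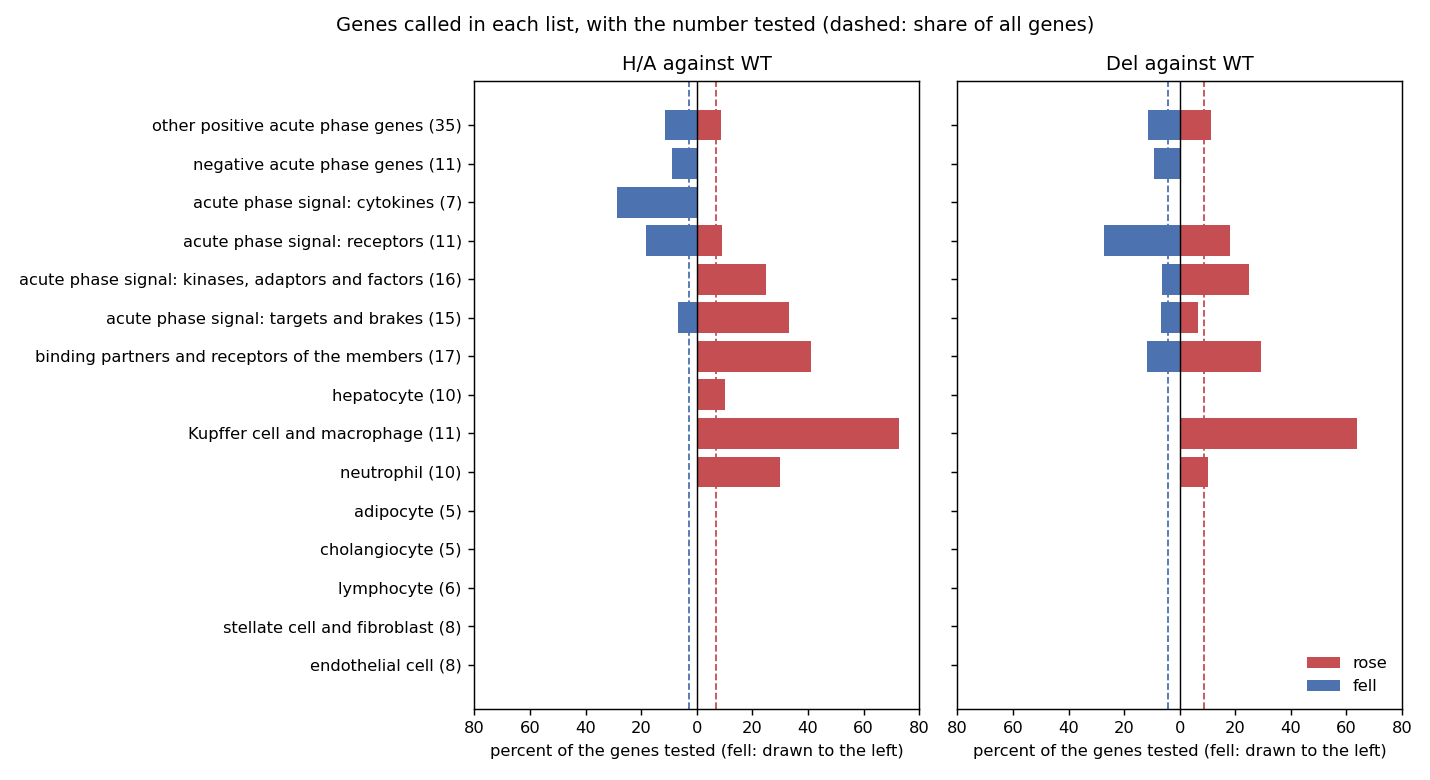
Percent of the genes tested in each list (number in brackets) that rose (red, to the right) or fell (blue, to the left) in H/A and in Del against WT, with the share of all genes that rose (7.08% and 8.85%) or fell (2.97% and 4.37%) as dashed lines. Both comparisons use the same 4 WT arrays. Macrophage markers have the longest bars, with 8 and 7 of 11, and the other positive acute phase genes have bars on both sides.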

How the data were processed

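The scanner files hold intensity values that, per the file headers, were background-subtracted within each array without scaling between arrays. The deposited value table holds log2 values of the same arrays; all 16 columns have the same median, 4.36, and differ by at most 0.00628 from quantile-normalised scanner values. The submitters' processing notes name Agilent Feature Extraction 11 and Partek. For 6 of 16 samples the listed scanner file is of another slide than the label, and all 16 columns matched best the file of the label, so the value table was used by sample.

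Probes were named through RefSeq transcript identifiers (36264 of 60037 with a symbol), kept when 4 or more of the 16 arrays had them well above background, and the brightest stood for its gene. All 16 arrays entered 1 linear model in limma 3.58.1 (R 4.3.3), with Benjamini-Hochberg adjustment over 31511 genes. Intervals are unadjusted. Deviations between mice, promoter motifs and likeness were computed in Python 3.11.15. Simulated data had normal noise, independent between genes, and few changed genes, all of them in H/A. There the fit recovered 8.7%, 61.3%, 91.3% and 99.3% of genes changed by 0.5, 1, 2 and 4 (log2) in H/A against WT. The real comparison called 3165 genes, far more than were changed in the simulation, so these rates need not hold for it.

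The 10 genes, the gene lists and the marker lists were chosen with earlier results of these data known. The text names all members, the 4 genes of each list and 3 of each cell type with the smallest F-test p (of which some are printed) with Il6 and Il6st, and the 2 genes most like each member. Alternatives were the scanner files by label and as listed, no scaling, normexp background, filters, array weights, slide blocks, fits within slides and leaving out each array.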

Additional observations from a re-analysis of the deposited data

Results flagged for a closer look

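In WT, Crp of replicate 2 stood apart at 12.64, against 12.14 to 12.22 in the other 3 WT mice, a gap of 0.843 of the range of the group. Of 36 combinations of gene and genotype looked at, this was the 1 that stood out. Chance flags about 1 in 20 such combinations, so 1 of 36 is no more than chance gives. The same mouse also had the highest Saa1 (12.38), Saa3 (7.98), Orm1 (13.00), Orm2 (11.94), Lcn2 (8.52), Hpx (15.37) and Lbp (7.03) of the WT group. Only its Hp was not the highest.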

How the results depend on the processing

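No call changed direction in any of 30 alternatives. With the scanner files as listed, whose 6 mismatched files belong to samples of other slides, 0 of the 9 genes were called in H/A against WT, Del against WT, Del against Flox and H/A against Flox, and 1 pair of genes agreed between mice. Those 6 files did not match the values of their samples (r = -0.468 to 0.343), so this setting mixes up samples. Of all 31511 genes it called 5, 0, 0 and 4 in these comparisons. With the files paired by label and scaled to the 75th percentile, 1 gene (Lcn2) was called in H/A against WT and 2 (Lcn2 and Lbp) in H/A against Flox. With only the compared groups fitted, 0 were called in H/A against WT and 1 (Lcn2) in Del against WT. With the slide in the file name as a block, 0 were called in Del against WT and 0 in H/A against Flox. That slide overlaps with genotype and for the 6 mismatched samples is not the slide of the measured values, so the block does not test a slide effect. Within the first slide, 0 were called in these 4 comparisons, and within the second, 0 in both H/A comparisons and 1 (Lcn2) in both Del comparisons. Fewer genes of any kind were called there: of 31511 genes, the first slide called 14 in H/A against WT, 140 in Del against WT, 160 in Del against Flox and 9 in H/A against Flox, and the second 627, 2549, 3506 and 513. Array weights called 5 in H/A against WT, adding Orm2 and Lbp. No scaling gave 15 agreeing pairs, and without it 9414 of 9540 called genes were higher in H/A than in WT, against 2230 of 3165 in the normalised values. The causes were not tested.

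Leaving out 1 array gave 0 to 4 called genes in H/A against WT, 1 to 2 in Del against WT, 2 to 3 in Del against Flox, 2 to 4 in H/A against Flox, 0 in Flox against WT, H/A against Del and the difference of differences, and 1 to 5 agreeing pairs. Over all genes, H/A against WT called 1451 to 8018 without 1 array, the highest without WT replicate 2, and 13453 with array weights. No paired analysis was possible because replicate numbers follow only the order of the samples. The number of arrays and, for Hp and Hpx, the few values at the top of the signal range limit the precision.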
